A study of Mus musculus with 20 samples.

Results

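The mRNA levels of 10 genes of the epidermal growth factor (EGF) system were compared between the colons of 4 groups of mice. They comprise 6 ligands (Egf, Tgfa, Areg, Ereg, Hbegf and Btc), 3 receptors (Egfr, Erbb2 and Erbb3) and the receptor inhibitor Errfi1. They were chosen by name as members of the family, from 32991 genes in the files. The value of a gene in a mouse is the summed FPKM (fragments per kilobase of transcript, scaled to the sequencing depth) of its annotated transcripts. Male C57BL/6 mice were used, 20 in all and 5 per group, with 1 library per mouse from colon tissue taken after 91 days. Control mice received distilled water by gavage and no carcinogen. PZH mice received 250 mg/kg/d of PZH by gavage, which stands for Pien Tze Huang, a formula of traditional Chinese medicine. Model mice received 1 intraperitoneal injection of 12.5 mg/kg azoxymethane (AOM), a colon carcinogen, and 2% dextran sodium sulfate (DSS), which injures the colon lining, in the drinking water, with distilled water by gavage. The DSS was given for 5 days starting 7 days after AOM and followed by 2 weeks of plain water, in a protocol of 4 cycles. Model + PZH mice received both AOM/DSS and PZH. The labels give the tissue as colon without saying whether tumour or surrounding mucosa was taken. In bulk tissue, fewer cells of a type and less RNA per cell cannot be told apart.

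The EGF family ligands are made as membrane-bound precursors, which proteases of the ADAM family shed from the cell surface. The ligands bind Egfr, or in the case of Hbegf, Btc and Ereg also Erbb4, and the bound receptor pairs with another receptor of the family. Erbb2 has no known ligand of its own, and Erbb3 binds neuregulins and has little kinase activity, so both signal mainly as partners. Active receptors feed the Ras-MAPK and PI3K-Akt cascades, and Errfi1 (also called Mig6) binds the kinase domain and blocks it. In the intestine the system is known for driving the proliferation of crypt cells and the repair of the epithelium after injury.

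Sequencing depth, read from the size of 1 fragment in FPKM multiplied by transcript length, was 15.3 M to 19.4 M fragments per mouse. At this depth Egf had between 22.5 and 94.5 estimated fragments in a mouse. The other 9 genes had at least 63.5, and Erbb3 had up to 7240. Of the intestinal epithelium markers, Vil1 (lowest mouse 156.9 FPKM) and Lgals4 (lowest mouse 562.5 FPKM) were high in all 20 mice, whereas Epcam was listed at 0 in 13 mice, so a listed 0 need not mean absence. The summed squamous epithelium markers, which the colon should lack, were 411 and 321 FPKM in Control mice 17 and 50 and at most 6.18 FPKM in the other 3 Control mice. They were 3.67 to 5.8 FPKM in PZH mice, 27.3 to 51.8 FPKM in Model mice and 12.5 to 76.5 FPKM in Model + PZH mice, with mouse 35 the highest. Results that use Control mice are therefore also given without these 2 mice where this changes a call. Model + PZH mouse 35 stood apart from its group: leaving it out raised the number of genes called between Model + PZH and Model mice from 1 to 808. It was singled out for this reason after the data had been seen. Calls made without it are therefore a description and not a separate test.

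The promoters of Areg, the ligand amphiregulin, and Errfi1 are shown because these 2 genes were both lower in PZH than in Control mice at an unadjusted P under 0.05 and both had a positive interaction term, as described below. Ereg met the same conditions but had no promoter entry, so whether it shares the motif is not known here. The sequences are the 250 bases before the annotated start, from RefSeq (GRCm38.p6), with TGACGTCA, the cAMP response element, in capitals. Only windows of these 2 genes that held this motif are shown. Areg lies at chr5:91139349-91139598 and Errfi1 at chr4:150854820-150855069, both on the plus strand.
Areg: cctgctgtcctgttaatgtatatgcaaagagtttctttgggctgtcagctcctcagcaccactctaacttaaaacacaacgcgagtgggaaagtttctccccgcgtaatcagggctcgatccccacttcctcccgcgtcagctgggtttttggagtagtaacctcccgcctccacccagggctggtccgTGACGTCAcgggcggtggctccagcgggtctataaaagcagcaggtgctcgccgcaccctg
Errfi1: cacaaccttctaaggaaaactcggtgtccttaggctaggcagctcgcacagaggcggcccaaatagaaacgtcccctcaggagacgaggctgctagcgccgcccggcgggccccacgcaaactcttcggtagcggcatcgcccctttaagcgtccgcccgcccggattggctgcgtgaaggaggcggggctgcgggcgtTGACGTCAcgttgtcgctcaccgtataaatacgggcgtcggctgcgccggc
TGACGTCA began 61 bases before the start in Areg and 51 bases before it in Errfi1. TATAAA followed at 31 and 28 bases before the start. Over all 32851 promoter windows of this length, 1.55% held TGACGTCA and 12.4% held TATAAA on either strand. Of the 7 family members with a promoter entry (9 windows), Areg and Errfi1 alone held TGACGTCA. Both motifs were picked after these sequences had been read, so their presence here is no test against the shares over all windows. The 2 further motifs, TGANTCA (6.75% of all windows) and CTTTGAT (3.21%), were found in none of the 7. A match is a run of letters and does not show that a factor binds. The start used for Errfi1 lies 3 bases before the first base of its transcripts 201 and 203.

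The receptors Erbb3 and Erbb2 stood at the top of the order of levels and Egf at the bottom, with Egfr in between. In Control mice Erbb3 had the highest mean (47.1 FPKM, range 35.2 to 58.8), followed by Erbb2 (34.4 ± 4.77 FPKM, SD, n = 5), Errfi1 (31.0 ± 6.203), Areg (22.8 ± 12.2), Hbegf (8.87 ± 3.77), Tgfa (7.08 ± 1.08), Egfr (6.52 ± 0.993), Btc (3.44 ± 0.808), Ereg (2.78 ± 1.01) and Egf (1.301 ± 0.492). Of the neighbours in this order, Egfr and Btc alone had ranges over the 5 mice that did not overlap. Erbb3 was above Erbb2 in every one of the 20 mice. Egf did not exceed 1.93 FPKM in any mouse, and it had the lowest mean of the 6 ligands in each group. In Model mice the mean of Ereg (7.47 ± 7.49 FPKM) stood between those of Egfr and Hbegf, but its range overlapped with that of both neighbours. In PZH mice Erbb3 and Erbb2, Erbb2 and Errfi1, and Hbegf and Btc were separate in range, and in Model and in Model + PZH mice Btc and Egf alone were. The summed level of the 6 ligands was 46.2 ± 16.2 FPKM in Control, 30.3 ± 8.98 in PZH, 47.9 ± 10.1 in Model and 55.3 ± 22.1 in Model + PZH mice. The summed level of the 3 receptors was 88.0 ± 14.1, 103.9 ± 11.2, 80.7 ± 18.1 and 79.3 ± 17.3 FPKM in the same order.

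**Figure D1:**
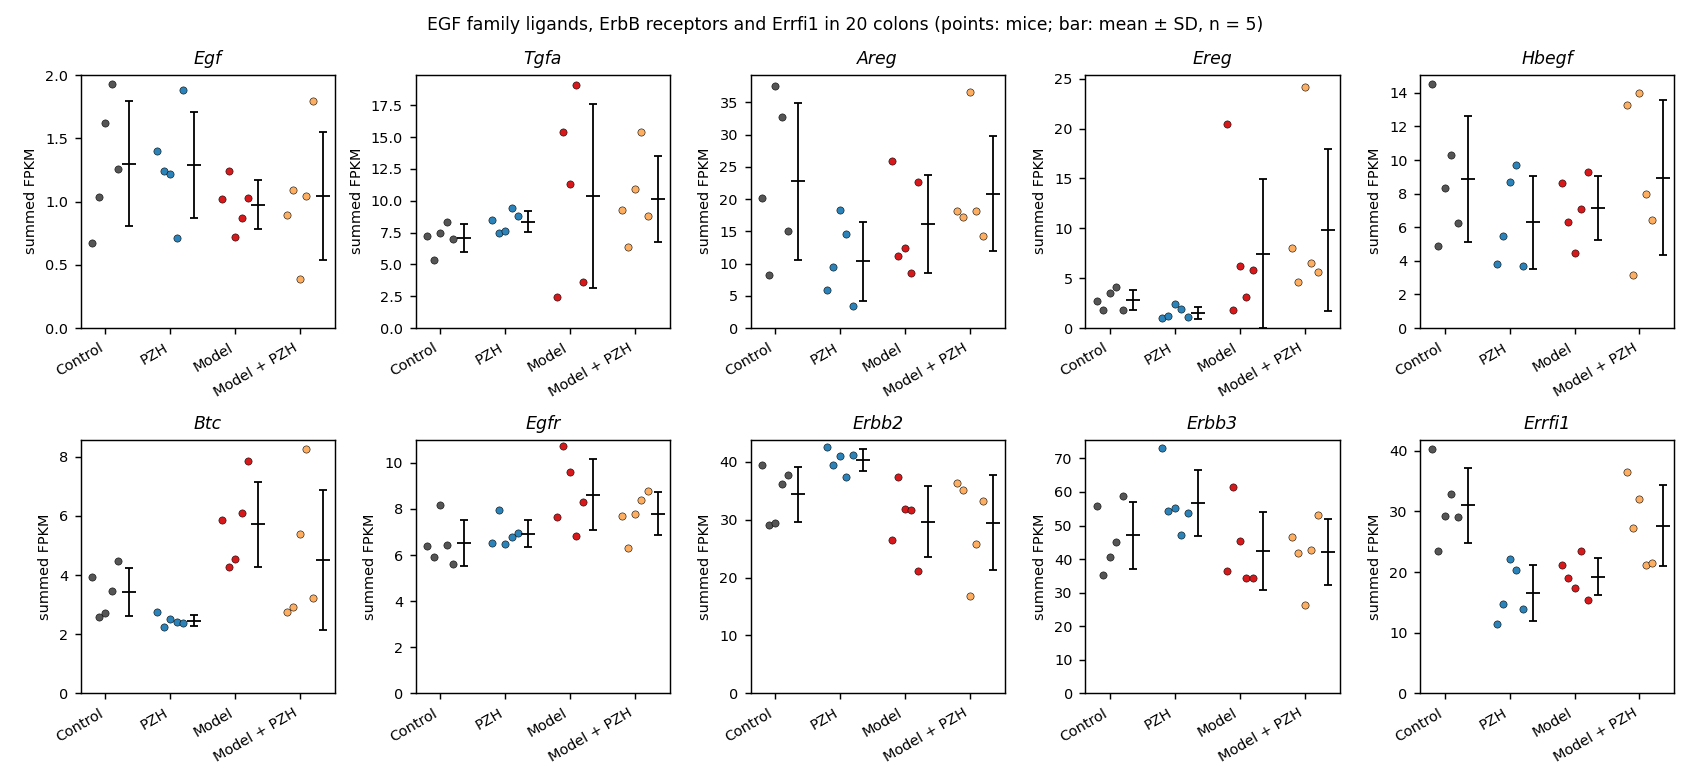
Summed FPKM (linear axis from 0) of each of the 10 genes in the 20 mice, grouped as Control, PZH, Model and Model + PZH, where points are mice and bars give the mean ± SD (n = 5). Errfi1 in PZH and Model mice lies below all Control mice (at least 23.5 FPKM), Btc reaches 7.85 FPKM in Model mice, and single mice with 20.5 and 24.2 FPKM stand far above the others for Ereg.

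Between Model and Control mice, 2 of the 10 genes differed at an adjusted P under 0.05, against 23.6% of the 15812 genes tested, so the family was not called more often than genes at large. Btc, the ligand betacellulin, rose, and the inhibitor Errfi1 fell. Btc was 5.87, 4.27, 4.53, 6.08 and 7.85 FPKM in Model mice and 3.93, 2.58, 2.70, 3.47 and 4.49 FPKM in Control mice. The highest Control mouse was above the lowest Model mouse, so the groups overlapped slightly. The difference was 0.59 on the log2(FPKM + 1) scale (SE 0.181, limma adjusted P = 0.0367), a ratio of 1.51. This call was lost when any 1 of Control mice 37, 41 and 48 or Model mice 23, 44 and 52 was left out (adjusted P = 0.0649 to 0.0854) with median-of-ratios scaling (adjusted P = 0.0753) and with no filter on low genes (adjusted P = 0.0621).

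Errfi1 was 21.1, 19.1, 17.3, 23.4 and 15.5 FPKM in Model mice and 40.3, 23.5, 29.2, 32.8 and 29.1 FPKM in Control mice. Every Model mouse was below every Control mouse, as for 5.43% of all genes tested. The difference was -0.65 (SE 0.154, limma adjusted P = 0.0119), a ratio of 0.637 on the same scale. Without Control mice 17 and 50 it was -0.54 with an adjusted P of 0.051.

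The other 8 genes did not pass the adjusted test between Model and Control mice. Egfr, the common receptor, was 7.66, 10.7, 9.60, 6.83 and 8.31 FPKM in Model mice and 6.401, 5.92, 8.19, 6.44 and 5.63 FPKM in Control mice. Its difference was 0.35 (95% confidence interval 0.04 to 0.67, limma adjusted P = 0.102), and it was called at 0.0411 when all 20 mice shared 1 model. With median-of-ratios scaling the difference of Egfr was 0.25 (limma adjusted P = 0.242). Without Control mice 17 and 50 it was 0.29 (limma adjusted P = 0.286). Ereg, the ligand epiregulin, was 20.5, 1.80, 6.21, 3.08 and 5.81 FPKM in Model mice, from the Control range (1.77 to 4.07) upwards. Its difference of 0.83 had an interval of -0.19 to 1.86, and it was 0.41 without Model mouse 23. Tgfa, transforming growth factor alpha, varied widely within the Model group. Model mice 23 and 52 had 2.46 and 3.66 FPKM, below all Control mice (5.36 to 8.31), whereas mice 30, 33 and 44 had 15.4, 11.3 and 19.1 FPKM, above all of them. The difference of the means on the log2 scale was thus 0.20 with an interval of -0.80 to 1.19. Areg was 25.9, 11.2, 12.5, 8.60 and 22.7 FPKM in Model mice, so mice 23 and 52, the lowest for Tgfa, were the highest for Areg. The difference of Areg was -0.41 (-1.31 to 0.50). For Hbegf, Egf, Erbb2 and Erbb3 the differences were -0.23, -0.20, -0.22 and -0.16, each with an interval that included 0. None of the 10 genes differed by over 2-fold with an unadjusted P under 0.05, a second rule met by 7.71% of all genes.

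Markers of other cell types also moved between Model and Control mice. They are counted here at an adjusted P under 0.05 (limma), where 16.4% of all genes tested were higher and 7.23% lower. All 8 smooth muscle markers were lower in Model mice (summed level 1010 to 1770 FPKM, Control 2280 to 5270). In the neutrophil list 6 of 7 markers tested were higher (241 to 669 FPKM, Control 81.1 to 400.0), and in the mast cell and basophil list 6 of 7 (53.2 to 282 FPKM, Control 7.36 to 15.2). Most of the neutrophil sum in Control mice was Ly6g (80.8 to 368.7 FPKM). Its mean was lower in Model (104.1 FPKM) than in Control mice (175.5 FPKM). In the macrophage and monocyte list 5 of 8 were higher (256 to 311 FPKM, Control 145 to 254). In both the lymphocyte and the endothelium list 3 of 8 were higher, and in the fibroblast list 2 of 8 were higher and 2 lower. In the squamous epithelium list 0 of 6 tested passed. In the intestinal epithelium list 2 of 9 were lower (3180 to 6450 FPKM, Control 4060 to 7910). Of the 9 differences, 4 were above 0 and 5 below 0. The sums include Krt8, which ran from 0.1048 to 3071 FPKM in Control and 0.74 to 1873 FPKM in Model mice. They also include Epcam, listed at 0 in every Control mouse and at up to 843.8 FPKM in Model mice. These sums therefore do not show whether the amount of epithelium differed. The part of the marker shifts in the values of Btc and Errfi1 was not tested.

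**Figure D2:**
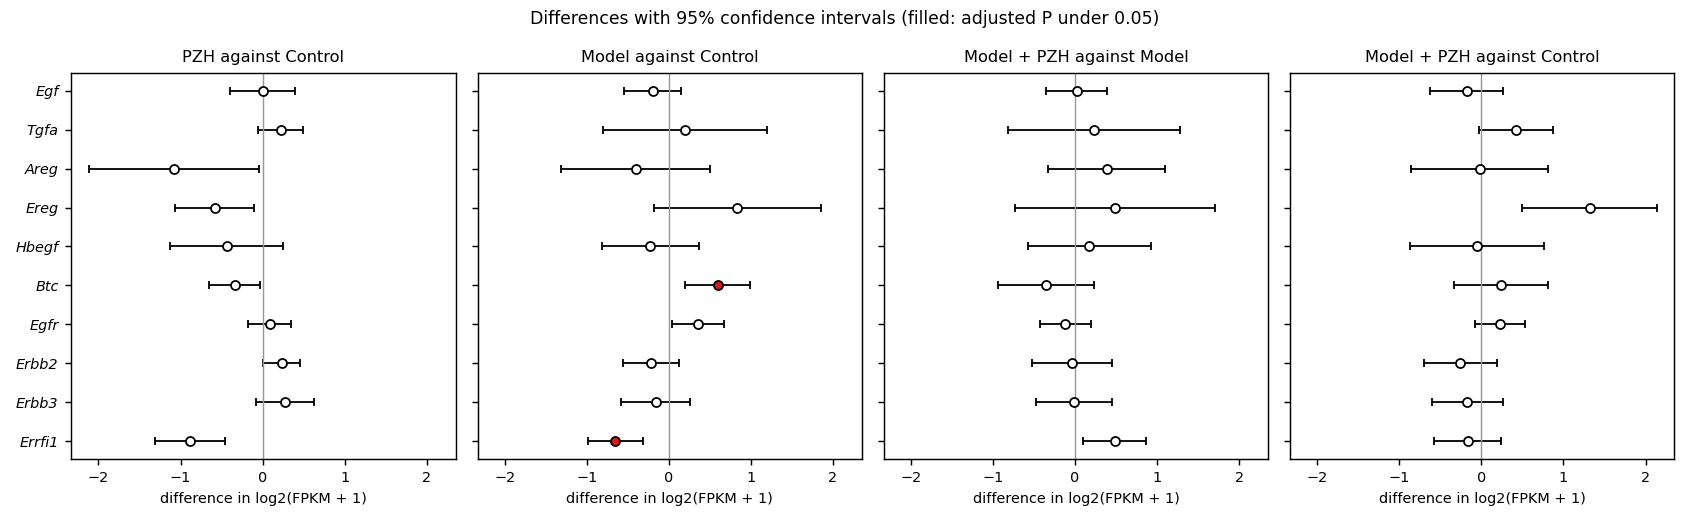
Difference in mean log2(FPKM + 1) for each of the 10 genes (rows) in the 4 comparisons (panels), with 95% confidence intervals from limma; filled points have an adjusted P under 0.05. The filled points are Btc (0.59) and Errfi1 (-0.65) in Model against Control, and Ereg is farthest to the right in Model + PZH against Control (1.32).

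PZH given to mice without AOM/DSS was compared with Control to show what the formula does in the uninjured colon. None of the 10 genes passed the adjusted test (limma), and of all 15506 genes tested 0.00645% did. At an unadjusted P under 0.05, 4 of the 10 were lower and 1 was higher, against 4.5% and 4.34% of all genes. Errfi1 was 11.4, 14.8, 22.2, 20.4 and 13.9 FPKM in PZH mice, so that each of them was below the lowest Control mouse (23.5 FPKM). The share of all genes with such non-overlapping lower values was 0.896%. The difference of Errfi1 was -0.88 (SE 0.192, unadjusted P = 0.000801, limma adjusted P = 0.378). Areg was 5.94, 9.43, 18.3, 14.6 and 3.41 FPKM in PZH mice and 20.2, 8.28, 37.6, 32.7 and 15.02 FPKM in Control mice. Its values overlapped between the groups, and the difference was -1.08 (SE 0.469, unadjusted P = 0.0422). Areg alone of the 10 was also over 2-fold lower, against 0.322% of all genes, and without Control mice 17 and 50 its difference was -1.21 (unadjusted P = 0.0731). Ereg was 0.968, 1.18, 2.40, 1.94 and 1.08 FPKM in PZH mice, a difference of -0.58 (SE 0.219, unadjusted P = 0.0225). Btc lay in a narrow range in PZH mice, 2.25 to 2.76 FPKM, with a difference of -0.34 (SE 0.139, unadjusted P = 0.0324), which was -0.18 without Control mice 17 and 50 (unadjusted P = 0.203). Erbb2 was 37.3 to 42.5 FPKM in PZH and 29.1 to 39.4 FPKM in Control mice, a difference of 0.23 (SE 0.103, unadjusted P = 0.0459). For Hbegf the difference was -0.44 (-1.12 to 0.25), and for Tgfa, Egfr, Erbb3 and Egf it was between 0 and 0.27 with intervals that included 0. In this comparison 5 of 8 smooth muscle markers were lower at an unadjusted P under 0.05 (summed level 1060 to 2450 FPKM in PZH mice). In the fibroblast list 3 of 8 were lower and 1 was higher by the same rule. In the mast cell and basophil list 2 of 3 tested were higher (16.7 to 20.8 FPKM in PZH, 7.36 to 15.2 FPKM in Control mice). No marker of the other lists passed this rule. The part of these markers in the member values was not tested.

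PZH in mice with AOM/DSS was compared with Model, which is the comparison that asks what the formula changes in the disease model. None of the 10 genes passed the adjusted test (limma), and 0.00629% of the 15888 genes tested did. At an unadjusted P under 0.05, Errfi1 alone was higher, against 3.51% of all genes, and none of the 10 was lower, against 8.21%. None met the 2-fold rule, against 2.4%. Errfi1 was 36.5, 27.2, 32.0, 21.1 and 21.5 FPKM in Model + PZH mice. Mice 2, 13 and 15 were above all Model mice, and mice 35 and 36 were inside the Model range (15.5 to 23.4 FPKM). The difference was 0.48 (SE 0.173, unadjusted P = 0.018, limma adjusted P = 0.362), and without mouse 35 it was 0.57 (adjusted P = 0.0879). Btc was 2.74, 2.93, 5.40, 8.26 and 3.21 FPKM in Model + PZH mice. Mice 2, 13 and 36 were below all Model mice and mouse 35 was above all of them. The difference of Btc was -0.36 (-0.94 to 0.23), and without mouse 35 it was -0.57 (unadjusted P = 0.0236, limma adjusted P = 0.155). Tgfa was 9.24, 6.38, 10.9, 15.4 and 8.82 FPKM in Model + PZH mice, inside the wide Model range. Areg was 18.1, 17.2, 36.7, 18.2 and 14.2 FPKM and Ereg 8.04, 4.60, 24.2, 6.57 and 5.66 FPKM, with mouse 15 the highest for both. The same mouse had the lowest Erbb2 (16.8 FPKM) and the lowest Erbb3 (26.4 FPKM) of all 20 mice. For the 8 genes other than Errfi1 and Btc, the differences lay between -0.12 and 0.48, with intervals that included 0. The widest interval was that of Ereg (-0.73 to 1.70).

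The neutrophil markers moved in this comparison too. At an unadjusted P under 0.05, 6 of 7 tested were lower in Model + PZH mice (summed level 151 to 360 FPKM), against 8.21% of all genes. Ly6g, a large part of that sum, had a higher mean in Model + PZH (145.6 FPKM) than in Model mice (104.1 FPKM). The part of these markers in the member values was not tested.

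Model + PZH was also compared with Control. No gene of the 10 passed the adjusted test (limma), against 2.42% of the 15616 genes tested. At an unadjusted P under 0.05, Ereg alone was higher, against 12.9% of all genes, and none was lower, against 7.93%. It was over 2-fold higher, against 2.47%. Every Model + PZH mouse (4.60 to 24.2 FPKM) was above every Control mouse (1.77 to 4.07 FPKM), as for 4.18% of all genes. The difference was 1.32 (SE 0.373, unadjusted P = 0.00468, limma adjusted P = 0.0859), a ratio of 2.49, and it was 0.95 without mouse 15. For Tgfa it was 0.43 (-0.02 to 0.87). Btc, higher in Model mice, had a mean of 4.51 FPKM in Model + PZH and 3.44 FPKM in Control mice. Leaving out 1 mouse at a time gave differences of 0.027 to 0.354 for Btc. For Egf, Areg, Hbegf, Egfr, Erbb2 and Erbb3 such fits gave differences between -0.342 and 0.304. Errfi1, lower in Model mice, had a difference of -0.17 from Control (-0.57 to 0.24). Cell type markers moved here too, counted at an unadjusted P under 0.05. All 8 smooth muscle markers were lower, and 2 of 9 tested in the intestinal epithelium list. Higher were 5 of 8 lymphocyte, 4 of 6 mast cell and basophil, 3 of 8 macrophage and monocyte and 2 of 5 neutrophil markers tested. The part of these markers in the member values was not tested.

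Whether the PZH difference depended on AOM/DSS was tested as an interaction over all 20 mice. None of the 10 genes passed the adjusted test (limma), nor did more than 0.0118% of the 16936 genes tested. At an unadjusted P under 0.05, 2 of the 10 had a positive term, against 3.41% of all genes, and none a negative one, against 6.92%. This test uses the same mice as the comparisons above, which share the Control or the Model mice among themselves. Errfi1 had the term with the smallest P of the family, 1.37 (SE 0.266, unadjusted P = 5.98e-05, limma adjusted P = 0.182): its PZH difference was -0.88 without and 0.48 with AOM/DSS. Without mouse 35 the term was 1.45 and was called (limma adjusted P = 0.00550), in a fit where 2.83% of genes were called. That mouse was singled out after the data had been seen, and Errfi1 was not called when any other mouse was left out. Areg had a term of 1.47 (SE 0.604, unadjusted P = 0.0254, limma adjusted P = 0.424). The term of Ereg was 1.07 (-0.24 to 2.37) and that of Hbegf 0.61 (-0.40 to 1.62). For the other 6 genes the terms lay between -0.28 and 0.02. Ereg, Areg and Btc lie within 328 kb of each other on chromosome 5 (91074622 to 91402994, GRCm38), and of these neighbours Btc had a term of -0.01 (-0.65 to 0.63).

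At the level of transcripts none of the 13 member transcripts tested in Model against Control passed the adjusted test (limma), where 6.94% of 40464 transcripts did. Btc-201, which carried most of the Btc level, had a difference of 0.63 (limma adjusted P = 0.0931). Errfi1-201, the most abundant Errfi1 transcript, overlapped between the groups, with a difference of -0.395 (SE 0.246, limma adjusted P = 0.416). Errfi1-202, whose annotated start lies upstream of that of Errfi1-201, had a mean of 1.04 FPKM in Model and 5.19 FPKM in Control mice (range 0.438 to 8.37). Its difference was -1.47 (SE 0.563, limma adjusted P = 0.164). Errfi1-203, a processed transcript at a low level, was 0.381 to 0.894 FPKM in Model and 0.902 to 2.01 FPKM in Control mice, without overlap. Its difference was -0.417 (SE 0.167, limma adjusted P = 0.184). The called fall of Errfi1 thus holds for the sum and not for any of its 3 transcripts alone. Most Erbb2 signal was not assigned to the full-length coding transcript. Erbb2-202, annotated as a processed transcript of 4431 bases in 26 exons, was given 91.4 to 99.2% of the summed FPKM in the 20 mice. The protein-coding Erbb2-201 of 5012 bases in 27 exons had a mean of 1.38 FPKM. Reads from exons shared by these transcripts were divided between them by the quantifier, so the share does not show that most Erbb2 RNA is noncoding. In Egfr, the coding transcript 201 of 28 exons held 41.5 to 92.5%, and most of the rest was Egfr-202, a shorter coding transcript of 16 exons. Errfi1-201 held 91.5% ± 6.73 of Errfi1 in Model mice and 77.1% ± 15.3 in Control mice (SD, n = 5). The difference of 14.43 percentage points had an unadjusted P of 0.0873 and an adjusted P of 0.794 (exact two-sided permutation test over mice, 12 tests). Over the 3 genes and 4 comparisons no adjusted P was below that value. Areg, Ereg, Hbegf and Erbb3 have 1 annotated transcript each in the files.

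**Figure D3:**
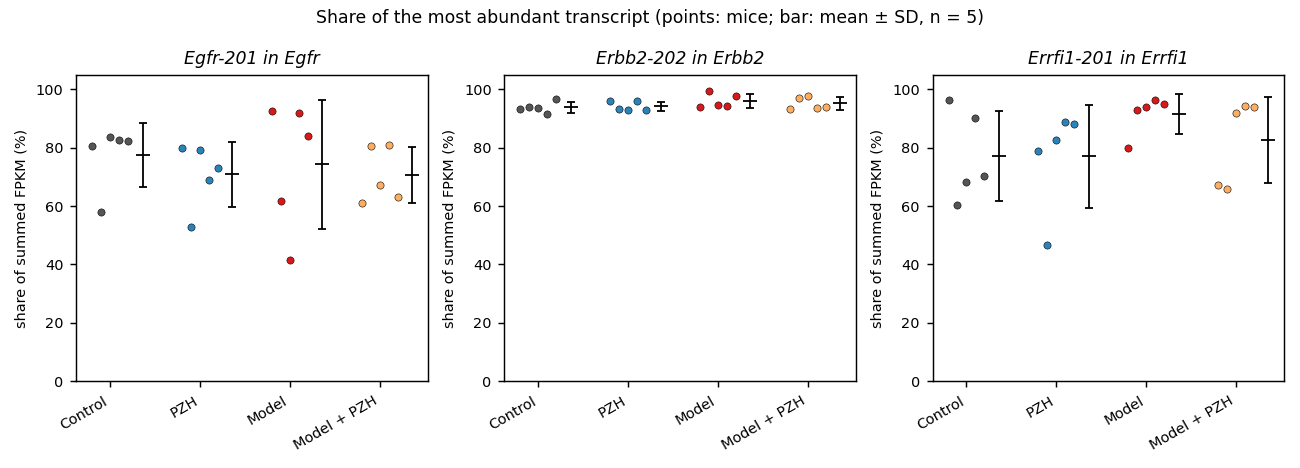
Share in percent of the most abundant transcript in the summed FPKM of Egfr, Erbb2 and Errfi1 per mouse, by group, where points are mice and bars give the mean ± SD (n = 5). Erbb2-202 stays above 91% in all mice, whereas Egfr-201 spreads from 41.5 to 92.5% and Errfi1-201 from 46.6 to 96.3%.

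Genes whose pattern over the 20 mice was most like that of Btc and Errfi1 were sought among 16935 others, by the root mean square difference of standardised log2(FPKM + 1) values. For Btc they were Cdh13 (0.327 SD), a cadherin without a transmembrane domain, Pls3 (0.353 SD), an actin-bundling protein, and Krt23 (0.365 SD), a keratin. Krt23 had means of 9.47 FPKM in Control, 5.01 in PZH, 56.3 in Model and 23.6 in Model + PZH mice, with 77.7 FPKM in Model + PZH mouse 35. For Errfi1 they were Atf3 (0.503 SD), a stress-induced transcription factor, Akirin1 (0.588 SD), a nuclear protein, and Trib1 (0.601 SD), a pseudokinase. Atf3 had means of 25.2 FPKM in Control, 11.6 in PZH, 11.9 in Model and 29.0 in Model + PZH mice, so that the order of its groups was low, like Errfi1, in the 2 single treatments. These genes were ranked on the same 20 values per gene, and the group differences are part of the likeness.

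**Figure D4:**
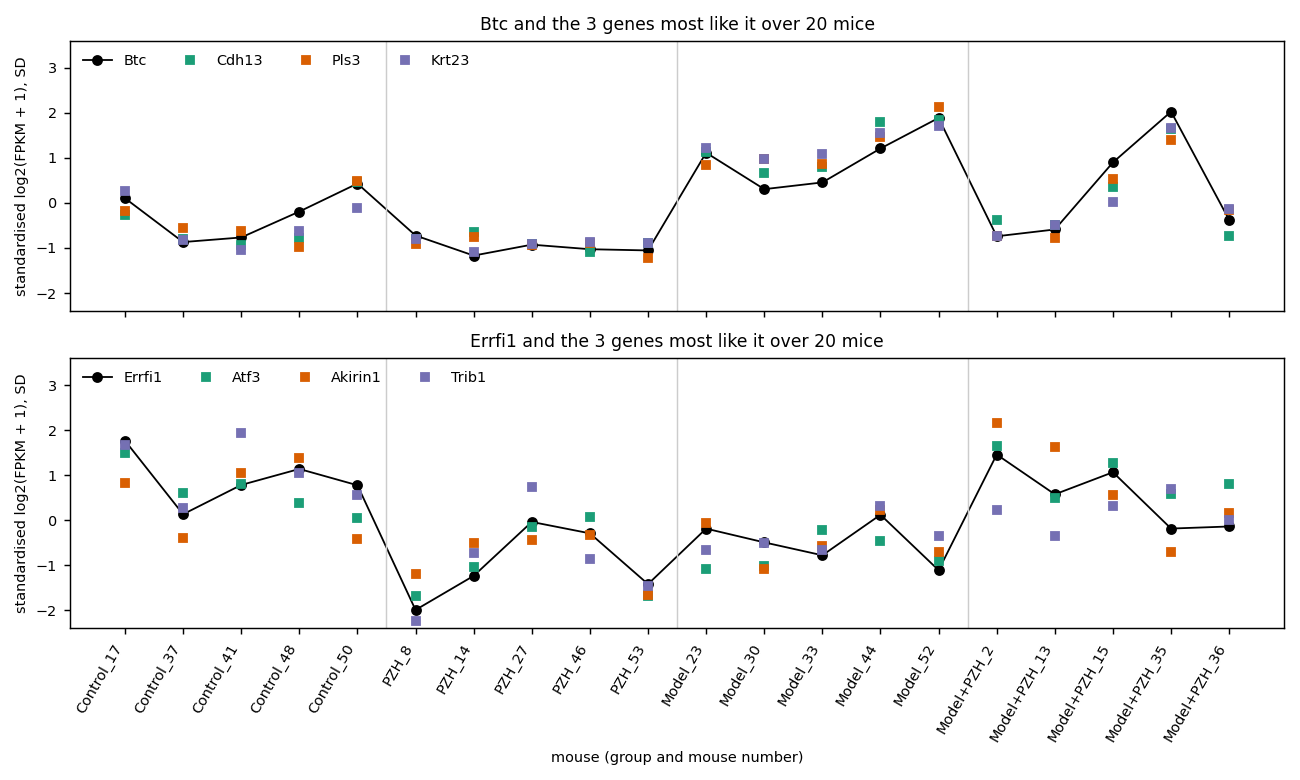
Standardised log2(FPKM + 1) in SD units (vertical axis) of Btc with Cdh13, Pls3 and Krt23 (top) and of Errfi1 with Atf3, Akirin1 and Trib1 (bottom) in each of the 20 mice, where vertical lines divide the groups. Btc is high in Model mice and in Model + PZH mouse 35, and Errfi1 is low in PZH and Model mice.

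Around the receptors, 70 further genes of the pathway were listed by role, and 65 were tested in Model against Control. Of these 20 passed the adjusted test (limma), 15 higher and 5 lower, against 16.4% and 7.23% of all genes; the median difference was 0.19 over the lists and 0.09 over all genes. Among the remaining ligands and Erbb4, Nrg1, a ligand of Erbb3, rose (difference 1.06, limma adjusted P = 0.0331), and Erbb4 was listed at 0 in 11 of 20 mice. Among genes of ligand shedding and maturation 3 of 6 passed. The sheddase Adam10 was 49.9 to 68.4 FPKM in Model and 19.9 to 32.0 FPKM in Control mice, a rise of 1.07 (limma adjusted P = 0.000442). Rhbdf2, which carries Adam17 to the cell surface, rose by 0.83 (limma adjusted P = 0.00215), whereas the rhomboid protease Rhbdl2 fell (difference -1.09, limma adjusted P = 0.00256). Rhbdl2 was 18.0 to 34.3 FPKM in Model mice and 39.5 to 64.0 FPKM in Control mice. Among receptor inhibitors and turnover genes 4 of 12 passed. Lrig3, a membrane protein related to the receptor inhibitor Lrig1, fell (difference -1.07, limma adjusted P = 0.00404), and Cblb, Ptpn1 and Sh3kbp1 rose. Of 10 adaptors Plcg1 rose and Nck1 fell, of 10 Ras-MAPK genes tested Nras rose and Map2k1 fell, and of 10 PI3K-Akt genes Akt1 and Akt2 rose.

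The largest differences were among the MAPK feedback and target genes, where 5 of 15 rose and 1 fell in Model mice. Dusp4, a nuclear MAPK phosphatase, was 15.8 to 32.2 FPKM in Model and 2.70 to 4.39 FPKM in Control mice, with no overlap, as for 13% of all genes tested (difference 2.54, SE 0.198). Ier3, an immediate early gene, was 26.7 to 62.9 FPKM against 5.72 to 14.6 FPKM (difference 2.21, SE 0.299). Etv5, an ETS transcription factor downstream of MAPK, was 17.1 to 39.7 FPKM against 2.43 to 11.4 FPKM (difference 2.19, SE 0.344). Phlda1 and Fosl1 also rose. Spry2, a Sprouty inhibitor of the cascade, fell (difference -0.58, SE 0.159), with 7.48 to 11.6 FPKM in Model and 11.9 to 18.8 FPKM in Control mice. The transcription factor gene Egr1 and the cytoplasmic MAPK phosphatase gene Dusp6 did not pass the test. Thus targets named for the same cascade moved in different directions, and the sign of the list's median (0.17) does not describe each gene. Apart from the 3 largest rises and falls, these genes were named after their values had been seen.

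In the other comparisons few pathway genes passed. In PZH against Control none of 65 passed the adjusted test (limma). At an unadjusted P under 0.05, 4 were higher and 4 lower, against 4.34% and 4.5% of all genes. Dusp5 was 2.69 to 4.26 FPKM in PZH mice and 4.67 to 11.3 FPKM in Control mice, with no overlap, as for 0.896% of all genes (difference -0.78, unadjusted P = 0.00432, limma adjusted P = 0.437). Fosl1 was also separate (difference -0.42), Grb2 had a difference of -0.52, and Cbl, Grb7 and Sos2 had differences of 0.41, 0.34 and 0.34. In Model + PZH against Model none of 65 passed (limma). Of these, 3 were higher and 9 lower at an unadjusted P under 0.05, against 3.51% and 8.21% of all genes. Dusp4 was 6.94, 4.94, 9.85, 32.1 and 7.35 FPKM in Model + PZH mice, where mouse 35 was within the Model range and the other 4 mice were below it. The difference of Dusp4 was -1.25 (limma adjusted P = 0.356), and without mouse 35 it was -1.66 and was called (limma adjusted P = 0.00730). Leaving out the mouse inside the Model range enlarges this difference by itself. Etv5 (-1.22, limma adjusted P = 0.356) and Ier3 (-1.11, limma adjusted P = 0.384) were likewise called without mouse 35 (-1.57 and -1.49), and so were Adam10, Plcg1 and Grb7, all lower, in a fit where 5.17% of genes were called. Lrig3, Spry2 and Dusp6, with differences of 0.62, 0.43 and 0.43 over all 5 mice, were not called in that fit. In Model + PZH against Control, Rhbdf2 alone was called (difference 0.71, limma adjusted P = 0.0413), and this was lost when any 1 of Control mice 17, 41, 48 and 50 or Model + PZH mice 2, 15 and 35 was left out. In the interaction none of 66 was called (limma). There were 3 positive and 9 negative terms at an unadjusted P under 0.05, against 3.41% and 6.92% of all genes, with the largest positive terms for Dusp6 (0.93), Dusp5 (0.68) and Spry2 (0.65) and the largest negative terms for Etv5 (-1.29), Dusp4 (-1.28) and Grb7 (-0.89). Without mouse 35 the terms of Dusp4 (-1.68, limma adjusted P = 0.00439), Adam10 (-0.98, 0.00817), Grb7 (-1.08, 0.0135) and Plcg1 (-0.69, 0.0275) were called, where 2.83% of genes were.

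**Figure D5:**
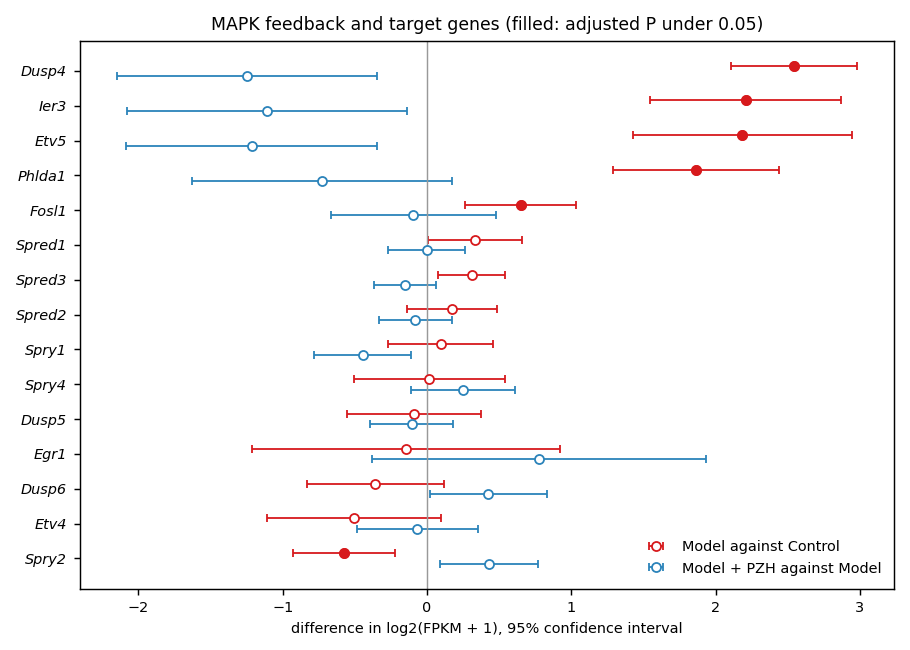
Difference in mean log2(FPKM + 1) with 95% confidence intervals for the 15 MAPK feedback and target genes in Model against Control (red) and Model + PZH against Model (blue); filled points have an adjusted P under 0.05. Dusp4 (2.54), Ier3 (2.21) and Etv5 (2.19) are farthest to the right in Model against Control and, at -1.25, -1.11 and -1.22, farthest to the left in Model + PZH against Model, where no point is filled; both comparisons use the same 5 Model mice.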

How the data were processed

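RNA-seq of colon was analysed in 20 mice, 5 per group by the labels. The authors depleted rRNA, filtered reads with NGSQC, aligned them with HISAT2 (mm10) and used StringTie for assembly and quantification. They deposited FPKM values per transcript, without counts, for 118434 transcripts. Of these, 96032 found in GENCODE M21 (GRCm38) were summed to 32991 genes. The 22252 assembled transcripts carry no gene name, held 12.1 to 14.8% of FPKM per mouse and were left out, so a member can be understated; 150 others were not in that release. One sentence of the labels' extraction text names another tissue (aorta), whereas the tissue label is colon.

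Values were compared as log2(FPKM + 1) with limma 3.58.1 (variance trend) in R 4.3.3, over genes that reached 0.5 FPKM in 5 or more of 10 mice compared. P-values were Benjamini-Hochberg adjusted over all of them and called under 0.05. Differences are on this scale, which understates changes of low genes. The interaction used all 20 mice. Transcript shares were compared by exact permutation tests (smallest P with 5 against 5 mice 0.00794). Counts were not recovered, since StringTie divides shared reads between transcripts. Depth and estimated fragments rest on that step and cover counting error only. Each library is a separate mouse, and the labels give no batch. The method was checked on simulated data. Promoters came from RefSeq, and Ereg, Hbegf and Erbb3 had no entry.

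Members and lists were chosen with earlier results of these data known. All 10 members were named, and of the other lists the 3 largest rises and falls per comparison among genes passing the adjusted test, or the unadjusted one where none did. Alternatives were a pseudocount of 0.1, no filter, at least 1 FPKM in every mouse, median-of-ratios scaling, 1 model for all 20 mice, no variance trend and leaving out each mouse. Leaving out Control mice 17 and 50 was added after seeing the data. Model + PZH mouse 35 was likewise singled out after its effect on the calls had been seen.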

Additional observations from a re-analysis of the deposited data

Results flagged for a closer look

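Of 40 sets of 5 mice (10 genes in 4 groups), 3 held a mouse far from the other 4. Chance would give about 2 if the values were normally distributed. That was not checked for these FPKM values, and the sets share mice, so the number is a rough guide only. Areg was 36.67 FPKM in Model + PZH mouse 15, against 14.2 to 18.17 FPKM in the other 4. Ereg was 24.2 FPKM in the same mouse, against 4.604 to 8.04 FPKM in the others. Ereg was also 20.45 FPKM in Model mouse 23, against 1.802 to 6.21 FPKM in the other Model mice.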

How the results depend on the processing

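No paired analysis was possible because no mouse number occurs in more than 1 group. Between Model and Control mice, 2 members were called, and 1 with no filter, with median-of-ratios scaling or without Control mice 17 and 50, 3 with all 20 mice in 1 model, and 1 to 2 without each mouse in turn. Errfi1 kept its call in the 10 fits that left out 1 mouse. Scaling moved the share of called genes that were higher in Model than in Control mice from 69.4% to 55%, and in Model + PZH against Control from 64% to 50.1%; the median of all genes moved from 0.09 to 0.01 and from 0.06 to -0.00. No member was called in PZH against Control, Model + PZH against Model or Model + PZH against Control under any of these alternatives, and 0 to 1 in the interaction. Over all genes, 378 were called in Model + PZH against Control, 98 with no filter, 1503 with all 20 mice in 1 model, 29 without Control mice 17 and 50, and between 78 (without Model + PZH mouse 15) and 495 (without Model + PZH mouse 13) when 1 mouse was left out. In Model + PZH against Model it was 1, 89 with all 20 mice in 1 model, and 808 without mouse 35 (1 to 3 without any other mouse). Pathway genes called in Model + PZH against Control were 1, and 0 with no filter or without mice 17 and 50, 11 with all 20 mice in 1 model, and 0 to 1 without each mouse; in Model + PZH against Model they were 0 to 6 without each mouse. Member transcripts called in Model against Control were 0, 1 with at least 1 FPKM in every mouse, and 0 to 1 without each mouse.

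Members near 0 changed sign, and their causes were not tested. With median-of-ratios scaling these were Egf in PZH against Control (-0.007), Erbb3 in Model + PZH against Model (0.023) and Btc in the interaction (0.029). With a pseudocount of 0.1 they were Egf in Model + PZH against Model (-0.021) and the interaction terms of Egf (-0.031) and Btc (0.003). Without Control mice 17 and 50 they were Egf in PZH against Control (-0.145), Erbb3 in Model (0.042) and Model + PZH (0.033) against Control, Hbegf in Model + PZH against Control (0.076) and Tgfa in the interaction (-0.002). Leaving out each mouse gave ranges across 0 for Egf (-0.109 to 0.101) in PZH against Control and Tgfa (-0.087 to 0.548) in Model against Control. In Model + PZH against Model the ranges were -0.104 to 0.149 for Egf, -0.122 to 0.513 for Tgfa, -0.009 to 0.454 for Hbegf, -0.147 to 0.146 for Erbb2 and -0.099 to 0.145 for Erbb3. In Model + PZH against Control they were -0.316 to 0.198 for Areg and -0.234 to 0.229 for Hbegf, and in the interaction -0.105 to 0.149 for Egf, -0.342 to 0.293 for Tgfa and -0.225 to 0.103 for Btc.

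The transcript share differences, in percentage points, also moved. The share of the 2 most abundant transcripts gave 4.29 and 0.71 for Egfr in Model and Model + PZH against Control, -3.59 in Model + PZH against Model (unadjusted P = 0.0317, exact permutation), and -0.99 and -0.55 for Erbb2 in PZH and Model + PZH against Control. Without each mouse the Egfr share ranged from -11.48 to -2.15 (PZH against Control), -8.04 to 5 (Model against Control) and -11.88 to 0.89 (Model + PZH against Model). The Erbb2 share ranged from -0.19 to 1.11 (PZH against Control) and -1.49 to 0.01 (Model + PZH against Model), and the Errfi1 share from -4.29 to 7.45 (PZH against Control) and 10.29 to 19.22 (Model against Control). Depth limits Egf most, with 22.5 to 94.5 estimated fragments per mouse.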
